A study of Mus musculus with 13 samples.

Results

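A group of 9 genes that set or mark the fate of ovarian somatic cells was examined in the RNA of mouse ovaries and ovarian tumors. They were Foxl2, Nr5a1, Nr5a2, Nr0b1, Wnt4, Rspo1, Runx1, Sox9 and Foxo1, taken by gene symbol, and they make up 9 of the 53465 genes measured. All 9 were found, and all 9 passed the filter on low values, a level of at least 1 TPM in at least 3 libraries. TPM, the unit of the table, is a read count scaled by gene length and by library, so that levels can be set side by side between genes.

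Granulosa cells surround the oocyte and depend on the forkhead factor FOXL2 to keep an ovarian identity, while the HMG-box factor SOX9 drives the Sertoli cells that hold the matching place in the testis. WNT4 and its potentiator RSPO1 are secreted signals that stabilize beta-catenin in the developing ovary and oppose SOX9. RUNX1 works beside FOXL2 in the fetal ovary, FOXO1 is a forkhead factor of the granulosa cells of growing follicles, and the nuclear receptors NR5A1 (SF-1) and NR5A2 (LRH-1) switch on steroid synthesis, held back by the corepressor NR0B1 (DAX-1).

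The study made electroporation-based genetically engineered mouse models (EPO-GEMMs) of ovarian cancer. Plasmids injected into an ovary of C57BL/6 female mice of 8 to 12 weeks carried Cas9 with a guide against Trp53 and a MYC transposon, and the plasmids were not directed to any 1 cell type. In a separate experiment the paper limited Cas9 to epithelial cells that express cytokeratin-8. The tumors were similar, and the paper concludes that EPO-GEMM tumors arise from epithelium. The 10 MP tumors (genotype Myc;p53-/-) and the 3 ovaries of wild-type (WT) C57BL/6 mice were all non-treated, and the age listed was 8 to 12 weeks for both groups. Tumors were isolated at a humane endpoint after electroporation, so that ages at collection cannot be compared. PolyA RNA of whole tissue was sequenced. In such bulk RNA, fewer cells of a type and less RNA per cell cannot be told apart.

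The RNA of Trp53, the targeted gene, stood at 80.7, 85.0 and 85.4 TPM in the ovaries. It was lower in MP tumors 1 to 9, between 4.30 and 26.0 TPM, but 187 TPM in the library labelled MP tumor 10, which is named that way throughout. Total reads, worked back from the TPM values, ran from 31445004 to 64013840 in the ovaries and from 3892690 to 19906507 in the tumors. The library names carry 3 IGO numbers, called library sets here, and all 3 ovaries share set 1 with MP tumors 1 to 3, so that sets 2 (MP tumors 4 to 6) and 3 (MP tumors 7 to 10) held tumors only. MP tumor 2 stood apart, with 55.1% of its TPM in 10 genes. The ovary label fitted its markers, since aromatase (Cyp19a1, 10.4 to 19.6 TPM), the steroid enzyme gene Cyp11a1 (6487 to 6958 TPM) and the oocyte coat gene Zp2 (67.2 to 91.4 TPM) were present in every ovary. In the library labelled MP tumor 10, Cyp11a1 was 12.8 TPM, Zp2 was listed at 0, and Myc, at 419 TPM, was the highest of any library. Myc was 126 to 129 TPM in the ovaries and as low as 7.09 TPM in the tumors. The reason for the Trp53 level of that library was not tested.

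The regulators formed 3 tiers in the ovary that were not kept in the tumors. By median TPM the order in the ovaries was Nr5a2 (351), Wnt4 (278), Nr5a1 (231), Foxo1 (188) and Foxl2 (164), then Nr0b1 (21.4), Runx1 (18.0) and Rspo1 (16.6), then Sox9 (2.78). Neighbors within a tier overlapped between ovaries, and the tiers did not overlap. In the tumors the order by median was Nr5a1 (61.0), Foxl2 (15.7), Nr0b1 (5.93), Rspo1 (5.69), Foxo1 (3.80), Sox9 (3.12), Wnt4 (1.47), Nr5a2 (0.901) and Runx1 (0.812), and every neighboring pair overlapped. Nr5a2, the first gene in the ovary, was the last but one in the tumors, and Nr5a1 exceeded Foxl2 in 9 of 10 tumors.

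**Figure D1:**
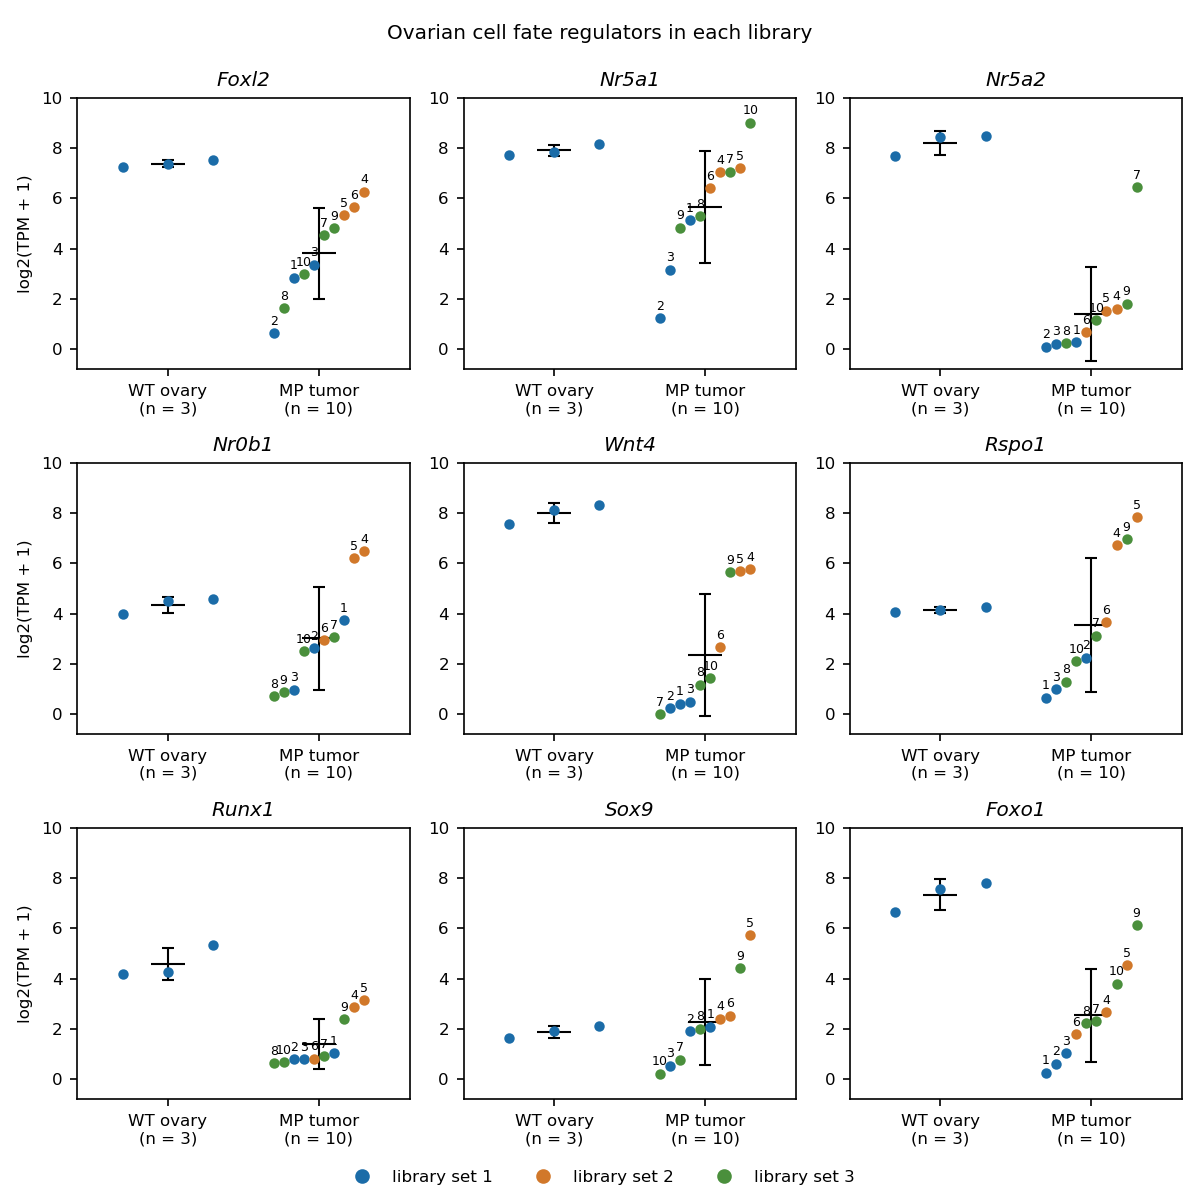
Level of each regulator as log2(TPM + 1) in 3 WT ovaries and 10 MP tumors, with points spread sideways in order of value, colored by library set and numbered by tumor, and bars giving mean and SD. Every tumor lies below every ovary for Foxl2, Nr5a2, Wnt4, Runx1 and Foxo1, whereas Rspo1 has 3 tumors above and 7 below the ovaries.

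Across all 13 libraries 5 of the 9 regulators were lower in MP tumors and 0 were higher (limma on log2(TPM + 1), Benjamini-Hochberg adjusted p under 0.05), where 14.3% of the 17277 genes tested were called lower and 2.51% higher. The same 5 genes, Foxl2, Nr5a2, Wnt4, Runx1 and Foxo1, had every tumor below every ovary, as did 16.4% of all genes tested, and 0 regulators had every tumor above every ovary, as did 3.02%. The median gene shifted by -0.58 on the log2 scale, and the fold changes below stand beside that shift. Another scaling moved this background, since 2463 lower and 433 higher calls became 1888 and 1291 with median-of-ratios scaling (median gene -0.02) and 2091 and 1904 with quantile normalization (median gene 0.08). The regulators called lower numbered 5 under each.

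FOXL2 represses the testis program in granulosa cells and is the marker most tied to them. Foxl2 (ENSMUSG00000050397, GRCm38 chr9:98955288-98958543, plus strand) measured 183, 164 and 152 TPM in the ovaries. In the tumors it ranged from 0.553 TPM in MP tumor 2 through a median of 15.7 to 76.0 TPM in MP tumor 4. The groups did not overlap, yet 9 of 10 tumors held at least 1 TPM, and MP tumors 4, 5 and 6 held the most. Its log2 fold change was -3.58 (SE 0.97, adjusted p = 0.0202). The call was lost on leaving out WT ovary 1, 2 or 3, with adjusted p between 0.092 and 0.103 and a log2 fold change between -3.64 and -3.51.

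Foxl2os, the divergent transcript at the same locus, lies on the opposite strand and overlaps only the first bases of Foxl2, from 98955288 to 98955299. Whether reads were counted by strand is not given in the sources used here, so that reads in the overlap cannot be told apart. The same limit holds for the antisense genes that overlap Nr5a1, Rspo1, Runx1 and Foxo1, whose means were at most 2.21 TPM in either group. Foxl2os itself had a mean of 41.8 TPM in ovaries and 19.7 TPM in tumors, with a log2 fold change of -1.56 that did not pass the test (SE 0.83, adjusted p = 0.197).

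RUNX1 is the second granulosa factor of the fetal ovary and is also made by blood cells. Runx1 (ENSMUSG00000022952, chr16:92601466-92826149, minus strand) stood at 18.0, 17.3 and 38.9 TPM in the ovaries. Its tumor levels ran from 0.539 through a median of 0.812 to 7.75 TPM, and only MP tumors 5, 4 and 9 exceeded 1.04 TPM. No tumor reached an ovary, and the log2 fold change was -3.19 (SE 0.60, adjusted p = 0.00194). Ptprc, the pan-leukocyte marker CD45, was 2.96 to 4.63 TPM in the ovaries and 0.562 to 3.06 TPM in the tumors, where it was 0.782, 3.06 and 2.96 TPM in MP tumors 4, 5 and 9. The 17 leukocyte markers summed to between 1255 and 3526 TPM in ovaries and between 606 and 3761 TPM in tumors, and Lyz2 made up most of these sums, with 3603 of 3761 TPM in MP tumor 3. Csf1r, Adgre1 and C1qa each had 9 of 10 tumors below every ovary, and Cd68 and Lyz2 each had 4. S100a8 went the other way, with 0 tumors below and 7 above every ovary, though its log2 fold change of 1.35 did not pass the test. These genes were chosen after their values were seen. Of 13 leukocyte markers tested 1 was lower (Nkg7, which passed the filter with the help of the ovaries) and 0 were higher, and 0 were lower with median-of-ratios scaling or quantile normalization. Their part in the Runx1 difference was not tested.

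FOXO1 is held in check by FSH signaling through AKT in granulosa cells. Foxo1 (ENSMUSG00000044167, chr3:52268336-52353221, plus strand) measured 188, 225 and 98.3 TPM in the ovaries. The tumors ran from 0.193 TPM in MP tumor 1 through a median of 3.80 to 68.5 TPM in MP tumor 9. MP tumor 9 stood well above the others, of which the next, MP tumor 5, held 21.99 TPM. The difference on the log2 scale was -4.81 (SE 0.99, adjusted p = 0.00394).

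SOX9 is the Sertoli factor that FOXL2 keeps silent, and Sox9 (ENSMUSG00000000567, chr11:112782224-112787760, plus strand) was low in the ovaries, at 2.78, 2.07 and 3.30 TPM. In the tumors it ran from 0.155 TPM, which was 1 read, in the library labelled MP tumor 10 through a median of 3.12 to 51.6 TPM in MP tumor 5. Of the tumors, 4 lay above the ovaries (MP tumors 4, 5, 6 and 9), 3 within their range and 3 below. A log2 fold change of 0.37 did not pass the test (SE 0.92, adjusted p = 0.792), and its 95% interval ran from -1.59 to 2.33. Its sign turned to -0.38 within library set 1 and to -0.01 without MP tumor 5.

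NR5A1 and NR5A2 bind the same response element, the former across steroidogenic cells of gonad and adrenal and the latter in granulosa and luteal cells of the ovary. Nr5a1 (ENSMUSG00000026751, chr2:38692656-38714542, minus strand) was 213, 287 and 231 TPM in the ovaries. It ran from 1.36 TPM in MP tumor 2 through a median of 61.0 to 518 TPM in the library labelled MP tumor 10. That library lay above every ovary, MP tumors 4, 5 and 7 held 130, 145 and 133 TPM, and 9 of 10 tumors lay below the ovaries. The log2 fold change was -2.28 (SE 1.16, adjusted p = 0.179), with a 95% interval from -4.75 to 0.18, so the test was not passed. The call depended on the library sets, since with set as a covariate Nr5a1 had a log2 fold change of -4.74 (SE 0.99, adjusted p = 0.00126) and the regulators called lower numbered 6. In that fit the fold change rests on MP tumors 1 to 3, the tumors of the set that holds the ovaries, and 49.4% of the 17277 genes were called lower and 5.17% higher (median gene -1.19), so that the 6 are no result about the regulators.

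Nr5a2 (ENSMUSG00000026398, chr1:136842571-136960448, minus strand) was 360, 351 and 202 TPM in the ovaries. In 9 of 10 tumors it lay between 0.061 and 2.49 TPM, and MP tumor 7 held 85.7 TPM. The median tumor had 0.296% of the mean ovary level, and MP tumor 7 still lay below each ovary. This was the largest fall among the 9 genes, with a log2 fold change of -6.81 (SE 1.01, adjusted p = 0.000255).

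NR0B1 binds both receptors and represses them. Nr0b1 (ENSMUSG00000025056, chrX:86191764-86195947, plus strand) was 21.4, 22.8 and 14.7 TPM in the ovaries and ran from 0.632 through a median of 5.93 to 89.0 TPM in the tumors. MP tumors 4 and 5, at 89.0 and 73.5 TPM, exceeded every ovary, and the other 8 lay below. The log2 fold change of -1.33 did not pass the test (SE 1.08, adjusted p = 0.393, 95% interval -3.64 to 0.97).

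Promoter sequence is shown for Nr5a2, Nr0b1 and Runx1, the regulators whose windows held a searched motif, as the 250 bases before the RefSeq start (GRCm38.p6), written in the direction of the gene. A set of 7 short motifs was searched on both strands of windows from 250 bases before to 50 after the start: CAAGGTCA for NR5A receptors, GTAAACA for forkhead factors, TGTGGT for RUNX, AGATAA for GATA factors, CACGTG for the MYC E-box, CTTTGAT for TCF/LEF and TATAAA for the TATA box. Capitals mark the matches, and a match on the strand opposite to the gene reads as its reverse complement. The Nr5a2 window (chr1:136960449-136960698, minus strand) holds a pair of GATA matches and a TATA box match, all on the strand opposite to the gene, the Nr0b1 window (chrX:86191525-86191774, plus strand) a RUNX match and a TATA box match 32 bases before the start, and the Runx1 window (chr16:92826075-92826324, minus strand) an E-box.
Nr5a2: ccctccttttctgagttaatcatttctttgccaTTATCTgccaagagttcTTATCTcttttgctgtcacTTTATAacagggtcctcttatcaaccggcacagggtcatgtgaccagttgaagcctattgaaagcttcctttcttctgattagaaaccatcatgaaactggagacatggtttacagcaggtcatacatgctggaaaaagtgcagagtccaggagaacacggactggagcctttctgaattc
Nr0b1: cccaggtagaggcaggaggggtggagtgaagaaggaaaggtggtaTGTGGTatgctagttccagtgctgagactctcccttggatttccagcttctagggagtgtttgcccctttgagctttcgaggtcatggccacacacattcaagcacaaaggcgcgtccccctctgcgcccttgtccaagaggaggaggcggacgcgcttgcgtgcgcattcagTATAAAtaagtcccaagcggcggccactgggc
Runx1: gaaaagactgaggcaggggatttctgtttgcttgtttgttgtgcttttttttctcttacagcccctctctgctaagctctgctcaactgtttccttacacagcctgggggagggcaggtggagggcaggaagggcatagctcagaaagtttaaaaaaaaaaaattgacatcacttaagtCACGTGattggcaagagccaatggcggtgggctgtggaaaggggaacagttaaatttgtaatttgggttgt

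RefSeq windows were at hand for 7 of the 9 regulators, 9 windows in all, and not for Nr5a1 and Sox9. Among all 32851 windows of this length the share with each motif was 1.56% for NR5A, 3.65% for forkhead, 16.8% for RUNX, 11.2% for GATA, 7.15% for the E-box, 3.73% for TCF/LEF and 13.6% for the TATA box. The windows of Foxl2, Wnt4, Rspo1 and Foxo1 held none of these letters, as did the second windows of Nr5a2 and Runx1, while Runx1's first window also held RUNX matches after its start, on the strand opposite to the gene. The Wnt4 window had a GC content of 84.3% and the first Nr5a2 window 42.0%.

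WNT4 and RSPO1 are the secreted pro-ovarian signals, and the former fell while the latter split the tumors. Wnt4 (ENSMUSG00000036856, chr4:137277489-137299726, plus strand) was 278, 188 and 318 TPM in the ovaries. In the tumors it ran from 0 in MP tumor 7 (0 reads, where 3 reads would be 0.295 TPM) through a median of 1.47 to 53.5 TPM. MP tumors 4, 5 and 9 held 53.5, 50.3 and 49.3 TPM and the other 7 at most 5.34 TPM. The log2 fold change was -5.65 (SE 1.27, adjusted p = 0.0072), and the call was lost without WT ovary 1 or WT ovary 3 (log2 fold change -5.59 and -5.49, adjusted p = 0.0534 and 0.0548).

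Rspo1 (ENSMUSG00000028871, chr4:124986430-125009099, plus strand) was 15.5, 18.1 and 16.6 TPM in the ovaries. The same 3 tumors, MP tumors 4, 5 and 9, held 105, 230 and 123 TPM and lay above every ovary. The other 7 ran from 0.574 to 11.5 TPM and lay below every ovary, so that no tumor fell in the ovary range. The log2 fold change over all tumors was -0.59 (SE 1.39, adjusted p = 0.782, 95% interval -3.55 to 2.37), and its sign turned to 0.02 with median-of-ratios scaling and to 0.42 with quantile normalization.

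**Figure D2:**
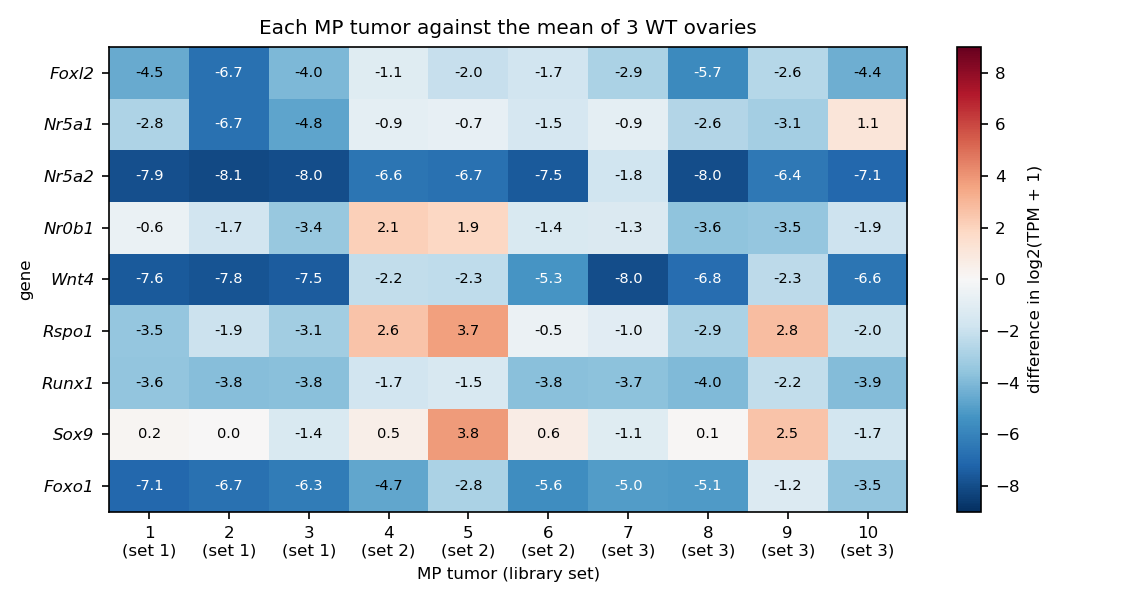
Difference in log2(TPM + 1) between each MP tumor and the mean of 3 WT ovaries, with 1 column per tumor, its library set in brackets, and red for higher and blue for lower. MP tumors 4, 5 and 9 are red for Rspo1, while Nr5a2 and Foxo1 are blue in all 10 tumors.

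Ratios of (TPM + 1) between regulators within a library depend little on the scaling of libraries except where levels are near the added 1, and 6 were compared by exact 2-sided permutation tests over all ways to choose 3 of 13 libraries (smallest possible p = 0.0035). On the log2 scale the ratio of Rspo1 to Wnt4, the potentiator over its ligand, was -3.85 ± 0.48 (SD, n = 3) in ovaries and 1.21 ± 0.96 (SD, n = 10) in tumors, a difference of 5.06 (exact p = 0.0035, adjusted over 6 ratios p = 0.0105). It was above 0 in 10 of 10 tumors and in none of the ovaries, although in some tumors both genes rested on few reads, such as 8 of Rspo1 and 10 of Wnt4 in MP tumor 1 (0.574 and 0.332 TPM) and 17 and 32 in MP tumor 8 (1.43 and 1.25 TPM). The ratio of Nr5a2 to Nr5a1 moved from 0.28 ± 0.47 to -4.24 ± 2.25, a difference of -4.53 (exact p = 0.0035, adjusted p = 0.0105), with 10 of 10 tumors below the lowest ovary. The ratio of Sox9 to Foxl2, testis over ovary factor, moved from -5.50 ± 0.31 to -1.55 ± 1.92, a difference of 3.95 (exact p = 0.00699, adjusted p = 0.014), with 10 of 10 tumors above the highest ovary and 3 of them above 0. The same 3 ratios passed with median-of-ratios scaling, at 5.15, -4.66 and 3.80. Each difference is that between the log2 fold changes of the pair, so these 3 are not independent of the lower calls of Wnt4, Nr5a2 and Foxl2. Their partners Rspo1, Nr5a1 and Sox9 did not pass the test over all 13 libraries.

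The other ratios did not pass. Runx1 to Foxl2 differed by 0.39 (exact p = 0.643), Foxo1 to Foxl2 by -1.23 (exact p = 0.304) and Nr0b1 to Nr5a1 by 0.95 (exact p = 0.532, adjusted p = 0.638). For these the tumors lay on both sides of the ovaries, as for Nr0b1 to Nr5a1, where 5 tumors were above and 4 below. Within library set 1 an exact p below 0.1 cannot be had from 3 against 3 libraries, and Wnt4 and Nr5a2 were under 1 TPM in each of its tumors, so no support is drawn from the ratios there.

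**Figure D3:**
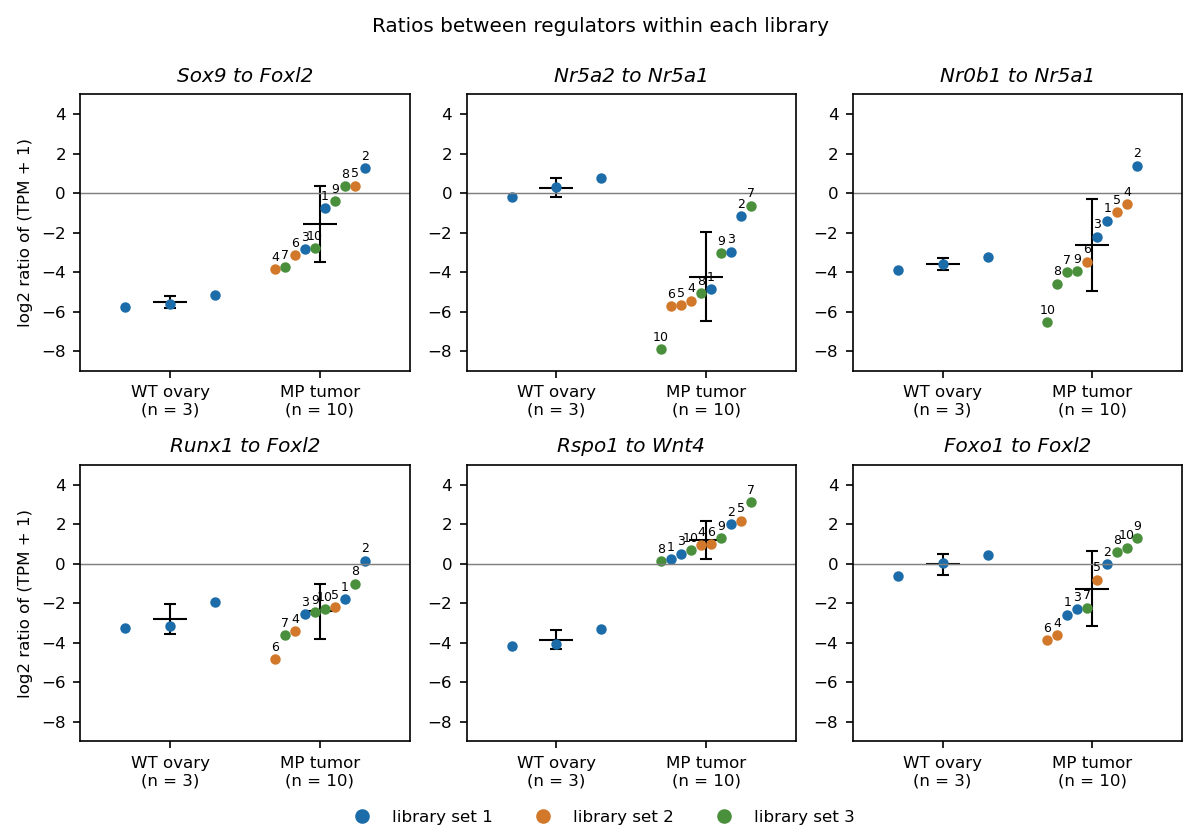
Log2 ratio of (TPM + 1) between pairs of regulators in each library, with points spread sideways in order of value, colored by library set and numbered by tumor, and bars giving mean and SD. The ratio of Rspo1 to Wnt4 is above 0 in 10 of 10 tumors and below -3.30 in each ovary.

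Within library set 1, the only set with both groups, 8 of the 9 regulators were lower in MP tumors 1 to 3 and 0 were higher, but 62.4% of the 15239 genes tested there were called lower and 6.84% higher, with a median gene at -1.44. Nr5a1 was the 1 regulator at 1 TPM or more in all 3 of these tumors, and the other 8 passed the filter with the help of the ovaries. Nr5a2 (0.061 to 0.212 TPM) and Wnt4 (0.172 to 0.408 TPM) were under 1 TPM in each of these tumors. The count of 8 is therefore a description, and so are the values of all but Nr5a1. The calls over all genes turned from 9504 lower and 1043 higher to 5364 and 4534 with median-of-ratios scaling, under which 6 regulators were lower. Nr5a1 fell by 4.74 on the log2 scale (SE 0.87, adjusted p = 0.00169), from 213 to 287 TPM in ovaries to 34.3, 1.36 and 7.96 TPM in MP tumors 1, 2 and 3. Rspo1 was 0.574, 3.71 and 1.00 TPM in MP tumors 1, 2 and 3 and Nr0b1 12.4, 5.18 and 0.946 TPM, with log2 fold changes of -2.85 and -1.90, and neither was called with median-of-ratios scaling. Sox9 was the gene not called, at -0.38.

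The tumors of set 1 also differed from those of sets 2 and 3, which held no ovary. Of the regulators 2 were lower in set 1, Nr5a1 by -3.51 (SE 0.89, adjusted p = 0.00975) and Foxo1 by -2.71, where 33.6% of 15833 genes were lower and 1.42% higher (median gene -0.95). With median-of-ratios scaling 0 of 9 passed, 1759 genes were lower and 2413 higher, and Nr5a1 and Foxo1 were the 2 regulators at an unadjusted p under 0.05 from limma (0.016 for Nr5a1). Foxo1 was 0.193, 0.519 and 1.05 TPM in MP tumors 1 to 3 and at least 2.42 TPM in the other 7, so that it passed the filter with the help of the latter and its values are a description. Library set and any difference between these tumors themselves cannot be told apart.

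**Figure D4:**
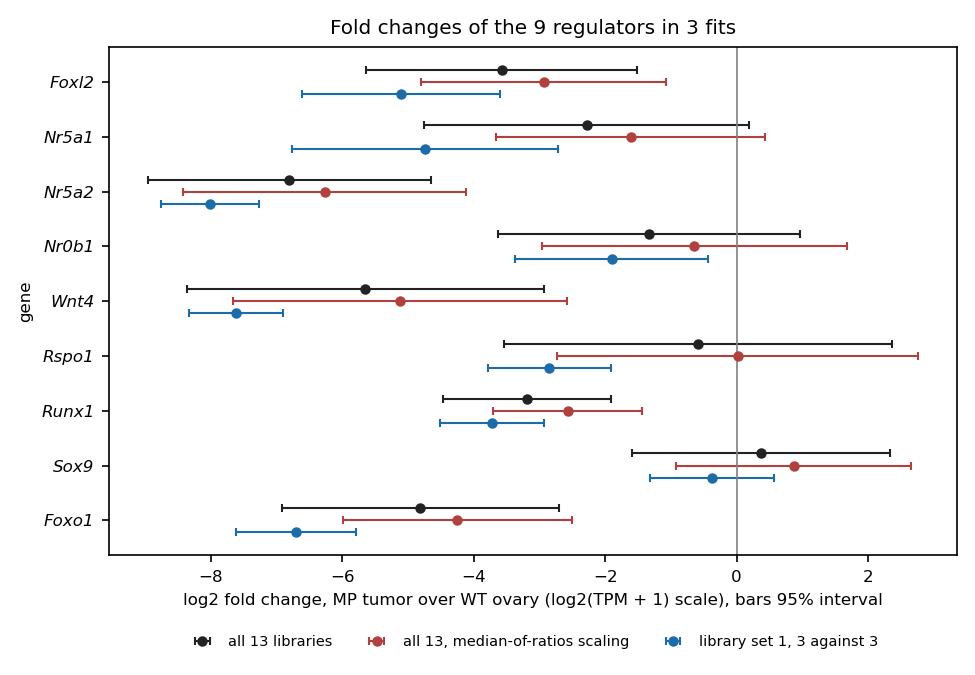
Log2 fold change of each regulator, MP tumor over WT ovary, on the log2(TPM + 1) scale with 95% intervals from limma, for all 13 libraries, for the same libraries with median-of-ratios scaling and for library set 1. Nr5a2 is farthest from 0 at -6.81 over all libraries, and the intervals of Nr5a1, Nr0b1, Rspo1 and Sox9 over all libraries include 0.

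The regulators varied widely between the libraries labelled as MP tumors. The SD of log2(TPM + 1) over the 10 tumors was 2.67 for Rspo1, 2.43 for Wnt4, 2.23 for Nr5a1, 2.04 for Nr0b1, 1.89 for Nr5a2, 1.84 for Foxo1, 1.82 for Foxl2 and 1.71 for Sox9, against a median of 0.861 over all genes tested. Rspo1 lay at the 99.7th percentile of that spread and Sox9 at the 93.4th, while Runx1, at 0.98, lay at the 59.9th. These percentiles were not matched on level, and the spread pools the library sets, for the regulators and for all genes alike. Over the 3 ovaries the SD ran from 0.11 for Rspo1 to 0.64 for Runx1, with 0.63 for Foxo1 and 0.47 for Nr5a2, against a median of 0.16 over all genes tested.

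MP tumors 4, 5 and 9 were the top 3 for Wnt4, Rspo1 and Runx1 alike. These 3 also held 48.5, 163 and 130 TPM of Wt1, a factor of coelomic epithelium and of granulosa and Sertoli cells, with no other tumor above 24.5 TPM. Wt1 was among the 3 genes closest to Rspo1 over all 13 libraries, though not over the 10 tumors. The 14 epithelial markers summed to 1323, 265 and 877 TPM in these 3 tumors and to between 12.7 and 279 TPM in the others. Krt18 alone held 496 TPM in MP tumor 4 and Upk3b 335 TPM in MP tumor 9. Cdh1 (7.15 TPM) and Cldn4 (60.0 TPM) were instead highest in MP tumor 1, and these genes were chosen after their values were seen. The part of epithelial cells in the 3 tumors' Wnt4, Rspo1 and Runx1 was not tested. Of 28 pairs among the 8 regulators with at least 1 TPM in 5 tumors, 1 correlation passed (Wnt4 with Rspo1) by Pearson's r and 0 by Spearman's rho. Since these 3 tumors stand apart in both genes, no pooled coefficient is given, and among the other 7 tumors r was 0.44 (exact permutation p = 0.335) and rho 0.11 (exact permutation p = 0.84), and r turned to -0.59 without MP tumor 6 and the library labelled MP tumor 10. It was 0.17 with a pseudocount of 0.1, where leaving out MP tumors 6 and 7 kept it at 0.17, and 0.18 with median-of-ratios scaling, so that no relation was shown within the 7.

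Most genes of the granulosa and steroidogenic programs that these regulators serve were lower in the tumors. Of 18 granulosa genes, 12 were lower and 0 higher, with a median log2 fold change of -4.01 beside -0.58 for all genes tested, of which 14.3% were lower. Of these 18, 4 (Cyp19a1, Fshr, Inhba and Esr2) were at 1 TPM or more in under 3 tumors. They passed the filter with the help of the ovaries and so had to differ, all 4 are among the 12, and their levels are given as a description, as are those of other genes said below to have passed in that way. Cyp19a1, which makes estradiol, was 10.4 to 19.6 TPM in ovaries and listed at 0 in 9 of 10 tumors. The FSH receptor gene Fshr was 23.6 to 75.5 TPM in ovaries and at 0 in 9 tumors, and the activin subunit gene Inhba 112 to 287 TPM against at most 2.47 TPM. The inhibin subunit gene Inha also fell (log2 fold change -4.94, SE 1.45, adjusted p = 0.0307), but reached 1430 TPM in MP tumor 4. Amhr2, the receptor of anti-Müllerian hormone, did not pass the test (log2 fold change -1.14, SE 1.15, adjusted p = 0.495), and MP tumors 4 and 5 and the library labelled MP tumor 10 held 648, 751 and 373 TPM against 181 to 200 TPM in ovaries. Inha and Amhr2 were chosen after their values were seen.

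Of 16 theca, luteal and steroidogenic genes 14 were tested, and 11 were lower and 0 higher, with a median of -5.05. Star, which carries cholesterol into mitochondria, fell from 1684 to 2506 TPM to at most 30.0 TPM (log2 fold change -7.77, SE 0.76, adjusted p = 3.89e-06). The LH receptor gene Lhcgr, at 244 to 865 TPM in ovaries, passed the filter with the help of the ovaries and was at most 5.79 TPM in tumors, and the prolactin receptor gene Prlr, at 158 to 243 TPM, at most 2.99 TPM. In the library labelled MP tumor 10, which held 518 TPM of Nr5a1, Star was 23.4 and Cyp11a1 12.8 TPM, while Hsd3b1 (740.0 TPM), Fdxr (424 TPM) and the sum of the 16 genes (1449 TPM) were the highest of any tumor, beside a sum of at least 30478 TPM in the ovaries. In MP tumor 7, which held 85.7 TPM of Nr5a2, Star was 9.13 TPM, Cyp11a1 21.9 TPM and the sum 727 TPM. Cyp11a1, Hsd3b1 and Fdxr were chosen after their values were seen.

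Of 13 oocyte markers 10 were lower and 1, Sohlh1, was higher, but 10 of the 13, with 9 of the 10 lower calls, reached 1 TPM in under 3 tumors and passed the filter with the help of the ovaries, so that the count is a description. Zp1 was listed at 0 in 9 of 10 tumors and Zp2 and Nlrp5 in 8 of 10, whereas Gdf9 was 1.27 to 18.9 TPM and Ooep reached 9.91 and Dazl 8.96 TPM. MP tumor 4, which held the most Foxl2, held the highest tumor values of Zp3 (2.60 TPM), Gdf9, Ooep and Dazl, while Bmp15 was listed at 0 there, Ddx4 was 0.76 TPM against 4.48 TPM in the library labelled MP tumor 10, and Sohlh1 was highest in MP tumor 5. The part of remaining ovary in these levels was not tested, and the genes beyond Zp1, Zp2 and Nlrp5 were chosen after their values were seen. Endothelial (5 of 10), smooth muscle (5 of 7), stromal (4 of 11) and epithelial (5 of 12 tested) markers were lower and 0 of these were higher (1 epithelial marker with quantile normalization), beside 14.3% lower and 2.51% higher over all genes. The endothelial count became 8 with quantile normalization and the stromal count 2 with median-of-ratios scaling, and 2 of the epithelial calls were of genes that passed the filter with the help of the ovaries. Of 8 cell cycle genes 3 were higher (Ccnb1, Cdk1 and Aurkb) and 0 lower. Among the stromal markers the sums were 2606 and 5358 TPM in MP tumors 5 and 9, the tumors with most Sox9 and Foxo1, and between 119 and 682 TPM in the others. Their part in those levels was not tested.

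**Figure D5:**
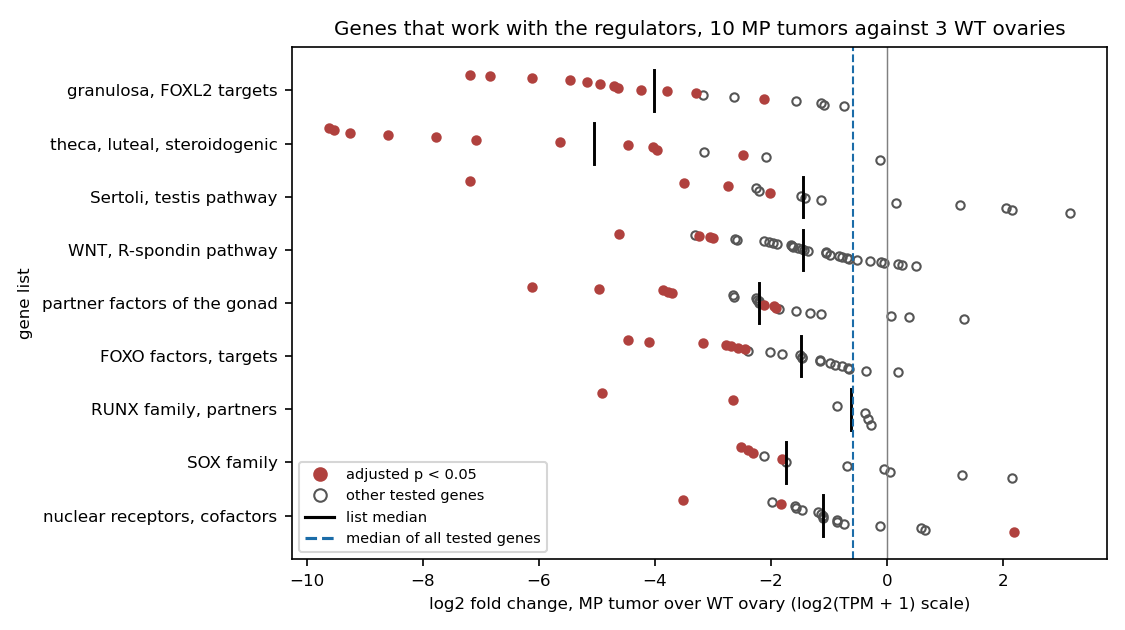
Log2 fold change, MP tumor over WT ovary on the log2(TPM + 1) scale, of each tested gene in the 9 lists that surround the regulators, filled where the adjusted p was under 0.05, with list medians as bars and the median of all genes tested as a dashed line. The steroidogenic list lies farthest to the left, with a median of -5.05, beside -0.58 for all genes tested.

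The lists around the other regulators held fewer calls, which stand beside 14.3% lower over all genes tested. Of 14 tested Sertoli and testis genes 4 were lower, among them Amh (log2 fold change -7.19, SE 0.83, adjusted p = 2.07e-05), Dhh (-3.49) and Gdnf (-2.01), and 0 were higher. Amh, the Müllerian inhibitor that granulosa cells make after birth, was 228 to 441 TPM in ovaries and at most 28.9 TPM in tumors, in MP tumor 5, the tumor with most Sox9. For the other two named genes MP tumor 5 lay above every ovary, with 60.2 TPM of Dhh against at most 33.7 TPM and 9.91 TPM of Gdnf against at most 7.42 TPM, and the other 9 tumors lay below every ovary. Dmrt1, a testis factor that opposes Foxl2, was at most 0.0593 TPM in ovaries, and MP tumors 4 and 5 held 36.4 and 100.3 TPM, but the difference did not pass (log2 fold change 2.06, SE 1.24, adjusted p = 0.253). Dmrt1 was chosen after its values were seen.

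Of 32 tested WNT and R-spondin pathway genes 4 were lower and 0 higher (median -1.45), or 12.5%, a share near the 14.3% of all genes. They included the ligand gene Wnt5a (log2 fold change -3.23, adjusted p = 0.0124), the R-spondin receptor gene Lgr5 (-2.997, adjusted p = 0.032) and the frizzled receptor gene Fzd1 (-4.62, adjusted p = 0.000282). Lgr5 was 15.5 to 22.2 TPM in ovaries and reached 8.32, 9.55 and 20.6 TPM in MP tumors 4, 5 and 9, against at most 0.724 TPM in the others. Axin2, a feedback target of beta-catenin, was 66.3, 26.6 and 34.4 TPM in the same 3 tumors and at most 4.65 TPM in the other 7, and its difference from the ovaries did not pass (log2 fold change -2.62, SE 1.17, adjusted p = 0.133). Axin2 was chosen after its values were seen.

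Of 21 tested partner transcription factors of the gonad 8 were lower and 0 higher (median -2.21), among them the estrogen receptor gene Esr2 (log2 fold change -6.11), which passed the filter with the help of the ovaries, and Hey2 (-3.77). Of 22 tested FOXO factors, targets and regulators 7 were lower and 0 higher (median -1.48), among them Sgk1 (-4.47, adjusted p = 1.05e-05), Pik3r1 (-4.10) and Bcl6 (-3.17). In the RUNX family 2 of 6 were lower, Runx2 (-4.90, adjusted p = 0.000122) and Cbfa2t3 (-2.65), and Cbfb, the common partner subunit, was 107 to 113 TPM in ovaries and 28.4 to 152 TPM in tumors (log2 fold change -0.33, adjusted p = 0.612). Of 11 tested SOX genes 4 were lower and 0 higher (median -1.73), and Sox5, Sox13 and Sox17 changed by -2.51, -2.39 and -1.82, of which Sox5 passed the filter with the help of the ovaries. Of 17 tested nuclear receptors and cofactors 2 (11.8%, again near the share of all genes) were lower, Rora (-3.51) and Prox1 (-1.82), of which Prox1 passed the filter through the ovaries alone, and 1 was higher. With median-of-ratios scaling the median of each of these 9 lists was still below 0, from -4.30 for the steroidogenic to -0.10 for the RUNX genes, as it was with quantile normalization, from -4.84 to -0.02. Under each of these scalings 11 granulosa genes were lower and 0 higher, 1 of the Sertoli, 1 of the SOX and 3 of the nuclear receptor genes were higher, and 7 of the 8 cell cycle genes were higher.

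The genes whose log2(TPM + 1) followed each regulator most closely over the 13 libraries, by Pearson's r among 9456 or 9457 genes with a mean of at least 10 TPM, are given as a description, since the libraries share the contrast between ovary and tumor. They were Mmp11 (0.96) and Tcf7 for Foxl2, Gna14 (0.97), Itm2b and Rarres2 for Runx1, Arhgap31 (0.99), Nnat and Arhgap28 for Foxo1, and Egln3 (0.91), Peg3 and Nnmt for Sox9. They were Mknk1 (0.98), Pja1 and Pak6 for Nr5a1, Padi6 (0.95), Serpina3g and Sgms2 for Nr5a2, and Wnt6 (0.93), Wfdc1 and 4930502E18Rik for Nr0b1. For the signals they were Reck (0.97), Usp3 and Afap1l2 for Wnt4 and Igfbp6 (0.94), Wt1 and Crb2 for Rspo1. Over the 10 tumors alone the leading genes were again Mmp11 for Foxl2 (0.94), Padi6 for Nr5a2 (0.91), Igfbp6 for Rspo1 (0.98), Egln3 for Sox9 (0.94) and Arhgap31 for Foxo1 (0.98), and they became Ptp4a2 for Nr5a1 (0.98), Ugp2 for Nr0b1 (0.97) and Pyroxd2 for Wnt4 (0.98). Wnt6, a WNT ligand, was at most 338 TPM in tumors, with a mean of 66.0 TPM in ovaries.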

How the data were processed

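Bulk polyA RNA of 10 MP tumors and 3 WT ovaries was read as 76 bp single-end reads. The authors deposited 1 table of TPM values for each gene and library, with gene lengths in bases. Per the labels' processing notes, FastQC 0.11.5, Trimmomatic 0.36, STAR 2.5.3a and featureCounts 1.6.3 were used with mm10. The extract protocol in the labels instead names a human build, HTSeq and RPKM, and the table's gene coordinates matched GENCODE M21 (GRCm38) for 95.9% of genes, so the unit and build were taken from the table. A strand setting is not given in the sources used here. Because TPM sums to 1000000 in each library, a gene falls when others take a larger share.

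The regulators and lists were chosen with earlier results of these data known. Values were tested as log2(TPM + 1), which understates changes of low genes, over all genes with at least 1 TPM in at least 3 libraries, using the trended and robust empirical Bayes fit of limma 3.58.1 (R 4.3.3) and Benjamini-Hochberg adjustment at 0.05. Ratios were compared by exact permutation (scipy 1.17.1) and correlations by 100000 permutations. Lists are described by counts and medians. From each list at most 3 genes with the largest moderated statistic among those past the threshold were named, and for each regulator the 3 genes with the largest r. Some genes that this rule names are not reported here. Where others are named, the text says that they were chosen after their values were seen, except for Ptprc, Foxl2os and Cbfb, which the rule does not name either. Trp53 and Myc were read as a check of the labels. Itgam had 2 rows, of which the one with the higher mean was used.

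Reads worked back from TPM and length were whole within 0.01 for 100% of values, so that a single read over 1 kb equalled 0.0513 to 0.109 TPM in ovaries and 0.114 to 0.79 TPM in tumors. The floor of 3 reads covers counting error only. Libraries of a group differed by more than counting noise, with a chi-square per degree of freedom from 25.9 to 93.6 for ovaries and from 46.1 to 591 for tumors, and each was kept as its own sample. The paper says that its sample sizes are of biological replicates unless it says otherwise. Nothing else states that the ovaries came from separate animals, and p-values measure the spread between these samples. Alternatives varied the pseudocount, filter, scaling, library set, replicate block, limma options, test and single libraries. Leaving out MP tumor 2 and the library labelled MP tumor 10 together and scaling the ratios were added after the data were seen. Scripts were tested on simulated data.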

Additional observations from a re-analysis of the deposited data

Results flagged for a closer look

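Among the 10 MP tumors, 5 regulators had 1 library far from the rest, with a gap to the nearest tumor above 0.466 of the whole range. The 15 measures tested were the 9 regulators in TPM and 6 log2 ratios. Chance gives about 1 in 20 for normally spread values, but TPM is strongly skewed, and on the log2(TPM + 1) scale 1 of the 9 genes, Nr5a2 in MP tumor 7, passed the same limit. Nr5a1 was 517.7 TPM in the library labelled MP tumor 10, where the next tumor held 145.4 TPM. That library also held 187 TPM of Trp53. Nr5a2 was 85.72 TPM in MP tumor 7, where the next held 2.488 TPM and where Wnt4 had 0 reads. In MP tumor 5, Rspo1 was 230.0 TPM beside a next value of 122.9 TPM, and Sox9 was 51.62 TPM beside 20.48 TPM. Foxo1 was 68.48 TPM in MP tumor 9, where the next held 21.99 TPM. These are values of single libraries, and no explanation was tested.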

How the results depend on the processing

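Leaving aside the 3 alternatives whose estimate rests on MP tumors 1 to 3 (set 1 alone, set as a covariate and the replicate block), Nr5a2, Runx1 and Foxo1 passed the test in all 21, Wnt4 in 19 and Foxl2 in 18, and the log2 fold changes of all 5 stayed negative in each. The count of regulators lower was 8 within library set 1 (62.4% of all genes lower), 8 with the replicate block (63.1%), 6 with set as a covariate (49.4%), Nr5a1 among them, 3 to 4 without an ovary (3.61% to 4.06%) and 5 without any 1 tumor (12.1% to 19.2%). The replicate numbers do not pair the samples, since they are different animals and same-numbered deviations correlated at -0.05, 0.02 and -0.04, and the block gave 9620 lower and 1043 higher genes. Within set 1 the count was 5 to 8 on leaving out single libraries, where the fits without an ovary tested 7 regulators, since Nr5a2 and Wnt4 no longer passed the filter. Between set 1 and the other tumors it was 0 with median-of-ratios scaling.

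Signs turned only for values that had not passed the test. For Rspo1 the log2 fold change became 0.022 (median-of-ratios) and 0.42 (quantile). For Sox9 it became -0.38 with library set 1 alone, with set as a covariate and with the replicate block, and without single libraries it ran from -0.011 (MP tumor 5) to 0.60, and within set 1 it became 0.75 (median-of-ratios) and, without single libraries, ran from -0.67 to 0.11 (MP tumor 3). For Nr0b1 between sets it became 0.20 (median-of-ratios). The ratio of Runx1 to Foxl2 became -0.13 with a pseudocount of 0.1.

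With set 1 alone the ratios differed by 4.73 (Sox9 to Foxl2), -3.28 (Nr5a2 to Nr5a1) and 4.77 (Rspo1 to Wnt4), with the smallest possible exact p of 0.1. Without single libraries they ran from 3.64 to 4.21, -4.93 to -4.12 and 4.85 to 5.34, and the other ratios from 0.50 to 1.38 (Nr0b1 to Nr5a1), 0.10 to 0.81 (Runx1 to Foxl2) and -1.53 to -0.94 (Foxo1 to Foxl2). Correlated pairs numbered 0 with a pseudocount of 0.1 and 0 with median-of-ratios scaling.

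Over all genes, calls lower and higher were 2463 and 433, and became 9504 and 1043 (set 1), 8534 and 894 (set as a covariate), 4045 and 1876 (limma-voom on recovered reads), 604 to 683 and 65 to 107 without an ovary, and 2899 and 680 without MP tumor 2 and the library labelled MP tumor 10, where the regulators lower numbered 5. Without a filter, 3631 were lower. The cause was not tested. Depth limits the low values in tumors, where Nr5a2 rested on as few as 2 reads, Sox9 on 1 and Wnt4 on 0.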

Other observations

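Values of 4 other gonad factors are given, chosen after they were seen. Sohlh1, a germ cell factor in the oocyte list, was 0.926 to 1.63 TPM in the ovaries and 6.98 to 275 TPM in the tumors, above every ovary in 10 of 10 (log2 fold change 4.77). It was under 1 TPM in WT ovary 2 and passed the filter with the help of the tumors, so that its values are a description. Sox8, the SOX9 relative of Sertoli cells, was 0.740 to 1.21 TPM in ovaries and 1.29 to 30.5 TPM in tumors, and did not pass the test (log2 fold change 2.16, SE 0.75, adjusted p = 0.06). Foxo3, the forkhead factor of dormant oocytes, was 50.3 to 55.3 TPM in ovaries and 3.30 to 121 TPM in tumors, with 113 and 121 TPM in MP tumor 9 and the library labelled MP tumor 10, and did not pass either (log2 fold change -1.15, SE 0.88, adjusted p = 0.368). Gata4, a partner of NR5A1, was 200.3 to 235 TPM in ovaries and ran from 4.01 TPM in MP tumor 2 to 344 TPM in MP tumor 5 (log2 fold change -2.21, SE 1.09, adjusted p = 0.17).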
